A study of Mus musculus with 9 samples.

Results

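The nucleolar ribosome biogenesis genes followed here are 44 genes of rRNA synthesis, rRNA processing and ribosomal subunit assembly, taken by symbol from the 24421 symbols of a mouse bone marrow RNA-seq count table. The rule names genes by function, describes many of them as MYC targets and uses no measured value, though it was drawn up with earlier results of these data known. All 44 symbols were in the table and passed the filter on low counts, with no library under 899 counts for any of them. Cells came from the hind limb marrow of mice, were depleted of lineage-positive cells, and grew for 5 days in interleukin-3, interleukin-6 and stem cell factor (SCF), a culture that the labels describe as myeloid blast-like. SHP099-treated mutant cells carried Tet2-/-Flt3ITD and received SHP099, an allosteric inhibitor of the phosphatase SHP2 (encoded by Ptpn11), for 24 h. Mutant vehicle cells had the same Tet2-/-Flt3ITD genotype and vehicle, and WT vehicle cells were wild type and received vehicle. Each of the 3 groups has 3 libraries, all on a C57BL/6 background. The mutant cultures were set up from individual mice, both arms of a culture sharing a number, while the labels name no individual mice for WT and give no age, no dose and no SHP099-treated WT group. Tet2 encodes a 5-methylcytosine dioxygenase, and Flt3ITD is an internal tandem duplication that keeps the receptor tyrosine kinase FLT3 active, so the genotype comparison joins both lesions and cannot separate them.

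Ribosomes are made in the nucleolus. RNA polymerase I transcribes a long precursor RNA, small nucleolar ribonucleoproteins (snoRNPs) guide its methylation and pseudouridylation, and large assemblies such as the small subunit processome fold and cut it while 40S and 60S subunits are built. Growing progenitor cells spend much of their transcription on this work, and many of its genes are known targets of the transcription factor MYC, which binds the E-box CACGTG.

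Promoter sequences were matched for 37 of the 44 genes (41 windows) in RefSeq, build GRCm38.p6, each window running from 250 bases before the transcription start site to 50 after it. The letters CACGTG, the same on both strands, were in 12 of these 37 genes, or 32.4%, against 11.5% of the 10072 tested genes with a window. Counted by window the share was 29.3%, against 7.15% of all 32851 windows of this length. Because the rule describes many of the 44 genes as MYC targets, these shares are not independent of how the genes were chosen. The matching genes were Mybbp1a, Utp20, Mdn1, Nop2, Wdr43, Tsr1, Nle1, Grwd1, Imp4, Pes1, Ltv1 and Exosc5. The windows below are those of the 4 matching genes with the smallest p for SHP099 in the tests that follow, written 5′ to 3′ on the gene's strand with the E-box in capitals.
Mybbp1a, chr11:72441077-72441376 (+): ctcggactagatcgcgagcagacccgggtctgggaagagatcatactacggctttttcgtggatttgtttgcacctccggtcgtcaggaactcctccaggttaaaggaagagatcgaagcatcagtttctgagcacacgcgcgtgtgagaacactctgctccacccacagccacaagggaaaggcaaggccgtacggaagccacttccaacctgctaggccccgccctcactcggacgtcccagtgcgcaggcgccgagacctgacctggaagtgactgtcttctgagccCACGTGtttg
Utp20, chr10:88826765-88827064 (−): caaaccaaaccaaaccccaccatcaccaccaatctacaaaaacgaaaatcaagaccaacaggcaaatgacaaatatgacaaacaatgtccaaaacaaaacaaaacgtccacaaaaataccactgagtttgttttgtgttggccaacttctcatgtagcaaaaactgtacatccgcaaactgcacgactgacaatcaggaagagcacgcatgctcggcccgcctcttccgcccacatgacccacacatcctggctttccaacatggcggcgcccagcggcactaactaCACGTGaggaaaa
Mdn1, chr4:32656869-32657168 (+): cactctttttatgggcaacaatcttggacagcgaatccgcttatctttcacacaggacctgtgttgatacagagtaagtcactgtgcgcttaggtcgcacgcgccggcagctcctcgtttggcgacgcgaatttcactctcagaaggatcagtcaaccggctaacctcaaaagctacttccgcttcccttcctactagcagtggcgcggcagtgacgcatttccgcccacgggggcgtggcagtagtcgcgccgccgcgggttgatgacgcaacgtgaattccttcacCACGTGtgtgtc
Nop2, chr6:125131633-125131932 (+): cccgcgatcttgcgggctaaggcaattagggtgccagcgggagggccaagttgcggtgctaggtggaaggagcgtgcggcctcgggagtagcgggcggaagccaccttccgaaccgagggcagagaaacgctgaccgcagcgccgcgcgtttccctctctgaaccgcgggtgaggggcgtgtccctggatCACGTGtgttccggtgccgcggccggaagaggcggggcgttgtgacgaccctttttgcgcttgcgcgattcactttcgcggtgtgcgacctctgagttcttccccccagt
Counting the first transcribed base as 1, the E-box began at base 41 in Mybbp1a, 38 in Utp20 and 39 in Mdn1, inside the first transcribed bases, and 60 bases upstream of the start in Nop2. A match after the start site was present in 9 of the 12 matching member windows (75.0%), against 356 of the 2349 matching windows of all genes (15.2%), a split looked at once the matches were known. Such matches are letters in a window and no evidence of binding, and neither file nor label measures binding.

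Total counts were 41053983 to 45810089 in SHP099 libraries, 30982845 to 41567622 in mutant vehicle libraries and 27242168 to 40681117 in WT libraries. Levels are given in CPM, counts scaled to the TMM-adjusted library size, so that they are shares of a library and not amounts per cell. In these bulk cultures, fewer cells of a type and less RNA per cell cannot be told apart. Tet2 had 10.9, 13.2 and 13.1 CPM with SHP099, 14.7, 14.9 and 17.0 CPM in mutant vehicle cells and 34.8, 31.8 and 33.1 CPM in WT cells, lower in every library labelled mutant. Rn45s, the 45S rRNA precursor locus, took 4.33% of counts in SHP099 replicate 3 and 0.276% to 0.734% in the other 8 libraries, and with an mRNA library kit its level is no measure of rRNA synthesis. All 10 myeloid progenitor markers were expressed, with summed levels of 15985 to 22349 CPM in SHP099, 15096 to 21741 CPM in mutant vehicle and 13478 to 17136 CPM in WT libraries.

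Most of the module was lower with SHP099. Of the 44 genes, 33 were lower with SHP099 than with vehicle in mutant cells, none was higher and 11 did not pass an adjusted p of 0.05 (edgeR's quasi-likelihood test, Benjamini-Hochberg over all 13270 genes tested). Over all genes tested, 13.0% were called lower and 8.81% higher. The median log2 fold change of the 44 genes was -0.27, against 0.00 for all genes, and single genes ranged from -0.84 for Mdn1 to 0.01 for Exosc5. The 3 SHP099 libraries all lay below the 3 vehicle libraries for 39 of the 44 genes, a pattern that 22.4% of all genes showed. Together the 44 genes took 0.858%, 0.892% and 0.839% of counts with SHP099, against 1.13%, 1.11% and 1.07% with vehicle in mutant cells. With Rn45s left out of the totals these shares were 0.864%, 0.898% and 0.877%, against 1.13%, 1.11% and 1.08%. Within cultures, SHP099 lay below vehicle for 42 of the 44 genes in culture 1 (median -0.28), 44 in culture 2 (-0.27) and 41 in culture 3 (-0.23). It lay below in all 3 cultures for 40 genes, and for 31.4% of all genes.

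The numbers pair the mutant libraries, and a fit of the 6 mutant libraries with the culture as a block called 38 of the 44 genes lower, against 21.3% of all genes. It called 5563 genes in either direction, against 2890 in the fit of all groups without a block. With so few libraries its p-values lean on a spread shared across genes, and they are not comparable with those of the other fits. Without SHP099 replicate 1, 2 or 3 the fit of all groups without a block called 28, 31 or 30 genes lower, without mutant vehicle replicate 1, 2 or 3 it called 31, 31 or 30, and without WT replicate 1, 2 or 3 it called 35, 32 or 34. Over all genes these fits called 1090 to 1759 lower, against 1721 with every library. Scaling by library totals alone turned the all-gene split to 740 higher and 2154 lower, against 1169 higher and 1721 lower with TMM, and called 36 of the 44 genes lower and none higher.

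**Figure D1:**
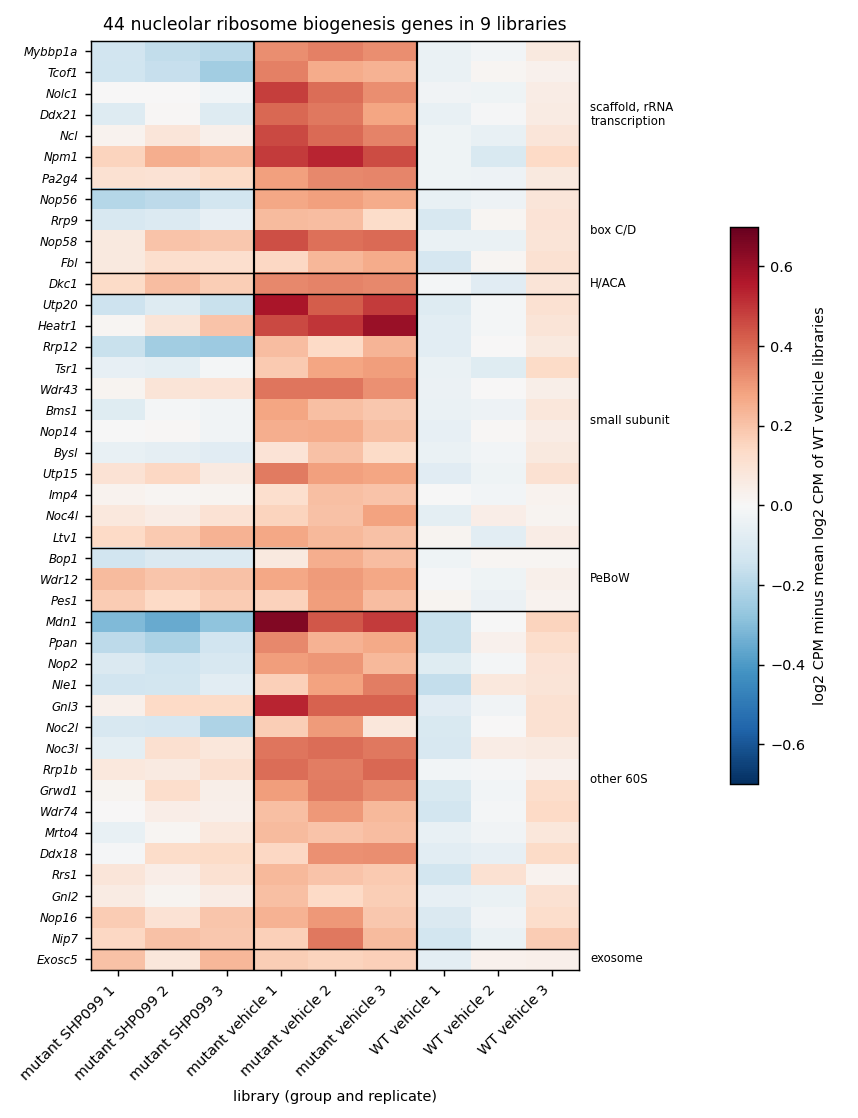
Level of each of the 44 genes (rows, grouped by role) in each of the 9 libraries (columns), as log2 CPM minus the mean log2 CPM of the 3 WT vehicle libraries. The 3 mutant vehicle columns are red in nearly every row, and the SHP099 columns lie on both sides of the WT level.

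Mutant vehicle cells held the module above WT cells. There 43 of the 44 genes were higher in mutant than in WT cells, none was lower and Noc2l alone did not pass. Over all genes tested, 16.9% were called higher and 14.7% lower. The median log2 fold change of the 44 genes was 0.27, against 0.02 for all genes, and single genes ranged from 0.14 for Bysl to 0.52 for Mdn1 and Heatr1. For 42 of the 44 genes every mutant vehicle library lay above every WT library, which held for 24.6% of all genes. Their summed share of counts was 1.13%, 1.11% and 1.07% in mutant vehicle cells, against 0.82%, 0.85% and 0.926% in WT cells. A fit of these 2 groups alone called 34 of the 44 genes higher, against 11.0% of all genes. Without SHP099 replicate 1, 2 or 3 the fit called 40, 40 or 37 genes higher, without mutant vehicle replicate 1, 2 or 3 it called 39, 32 or 34, and without WT replicate 1, 2 or 3 it called 35, 33 or 41. Over all genes these fits called 1351 to 1979 higher, against 2248 with every library.

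**Figure D2:**
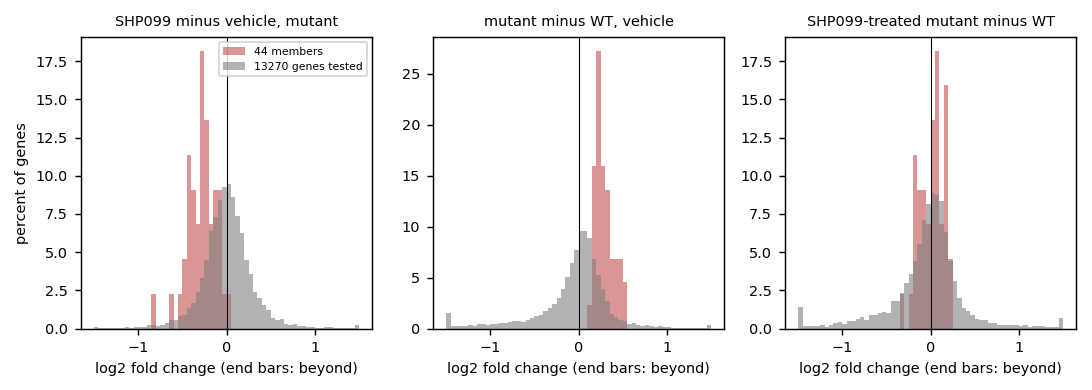
Distribution of log2 fold changes (x axis, bins of equal width, end bars hold values beyond the axis) as percent of genes (y axis) for the 44 genes in red and all 13270 genes tested in grey, in the 3 comparisons. The 44 genes centre on -0.27, 0.27 and 0.04, where all genes centre on 0.00, 0.02 and 0.00.

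The comparison of SHP099 with vehicle and that of mutant with WT share the mutant vehicle libraries, so their values are set side by side and no link between them is drawn. Set directly against WT, SHP099-treated mutant cells had 7 of the 44 genes higher, 5 lower and 32 that did not pass, while 15.4% and 16.3% of all genes were called higher and lower. The median was 0.04, against 0.00 for all genes. The higher genes were Wdr12 at 0.21 ± 0.03 (adjusted p = 0.0018), Npm1 at 0.21 ± 0.06 (adjusted p = 0.032), Ltv1 at 0.19 ± 0.04 (adjusted p = 0.01), Pes1 at 0.17 ± 0.04 (adjusted p = 0.015), Dkc1 at 0.17 ± 0.05 (adjusted p = 0.019), Exosc5 at 0.17 ± 0.05 (adjusted p = 0.02) and Nop58 at 0.15 ± 0.05 (adjusted p = 0.049), all as log2 fold change ± SE. Lower than in WT cells were Mdn1 at -0.32 ± 0.08 (adjusted p = 0.013), Rrp12 at -0.22 ± 0.05 (adjusted p = 0.0083), Tcof1 at -0.18 ± 0.04 (adjusted p = 0.013), Mybbp1a at -0.17 ± 0.04 (adjusted p = 0.012) and Nop56 at -0.17 ± 0.04 (adjusted p = 0.014). Over 20 alternatives the call was lost for Nop58 in 16, for Npm1 in 8, for Dkc1 in 6, for Exosc5 in 4, for Ltv1 and Pes1 in 3 each, and for Mdn1, Rrp12, Tcof1 and Mybbp1a in 2 each. These small counts moved with 1 library: 1 gene was called higher without SHP099 replicate 3, 4 without SHP099 replicate 2, 4 without WT replicate 1, 3 without WT replicate 2 and 11 without WT replicate 3, and 9 were called lower without WT replicate 1. Over all genes the same fits, in that order, called 1080, 1397, 1737, 1418 and 1491 higher, against 2045 with every library. All genes called lower numbered 1859 without WT replicate 1, against 2164. Scaling by library totals alone gave 2 higher and 7 lower genes, where all genes turned to 9.47% higher and 19.0% lower. Removal of a trend with transcript length and GC content gave 4 higher and 1 lower, against 12.3% and 13.7% of all genes. In that fit Nop58 stood at 0.03, Npm1 at 0.08, Mdn1 at -0.10 and Tcof1 at -0.05, none of which passed.

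**Figure D3:**
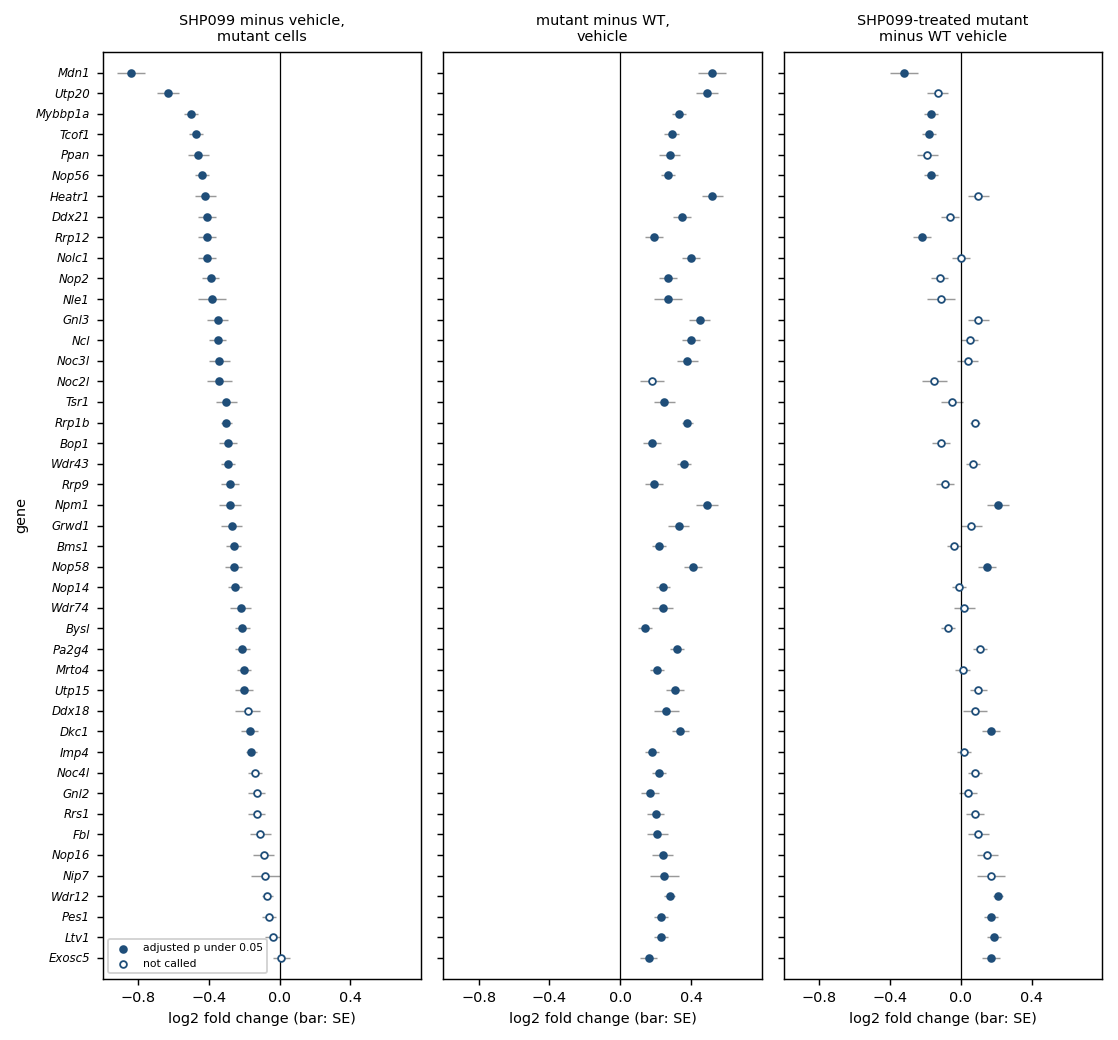
Log2 fold change (x axis, bars are SE) of each gene (y axis, ordered by its SHP099 response) in the 3 comparisons, filled where the adjusted p was under 0.05. With SHP099 33 genes are filled and lie below 0, in mutant against WT vehicle cells 43 are filled and lie above 0, and in SHP099-treated mutant against WT cells 12 are filled on both sides of 0.

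All 7 genes of the nucleolar scaffold and of rRNA transcription were lower with SHP099, with a median log2 fold change of -0.41, and all 7 were higher in mutant than in WT vehicle cells, with a median of 0.35. Mybbp1a, a nucleolar protein first found as a partner of the transcription factor MYB and active in rRNA synthesis, had the smallest p of the 44 genes for SHP099. In the SHP099 libraries Mybbp1a stood at 404, 393 and 389 CPM, in the mutant vehicle libraries at 556, 567 and 556 CPM and in the WT libraries at 429.9, 437 and 465 CPM. Its log2 fold change was -0.50 ± 0.04 (adjusted p = 0.00023) with SHP099 and 0.33 ± 0.04 (adjusted p = 0.00062) in mutant against WT vehicle cells, and no libraries of different groups overlapped. Tcof1 encodes treacle, a scaffold for RNA polymerase I. The level of Tcof1 was 138, 136 and 128 CPM with SHP099, 194, 182 and 180 CPM in mutant vehicle cells and 147, 154 and 155 CPM in WT cells. It fell with SHP099 by 0.47 on the log2 scale (SE 0.04, adjusted p = 0.00038) and was higher in mutant than in WT vehicle cells at 0.29 ± 0.04 (adjusted p = 0.0016), again without overlap of groups. Nolc1 (Nopp140) is a chaperone of snoRNPs. For Nolc1, counts came to 266, 266 and 262 CPM with SHP099, 371, 348 and 333 CPM with vehicle in mutant cells and 261, 260.4 and 276 CPM in WT cells. Its SHP099 libraries lay within the WT range and its mutant vehicle libraries above it, with log2 fold changes of -0.41 ± 0.05 (adjusted p = 0.00059) with SHP099 and 0.40 ± 0.05 (adjusted p = 0.0005) for genotype.

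Ddx21, an RNA helicase that couples rRNA transcription to processing, was lower with SHP099 at -0.41 ± 0.05 (adjusted p = 0.00078) and higher in mutant vehicle cells at 0.35 ± 0.05 (adjusted p = 0.0012). Ddx21 reads made up 347, 372 and 347 CPM of the SHP099 libraries, 488, 477 and 447 CPM of the mutant vehicle libraries and 356, 368 and 385 CPM of the WT libraries. The mutant vehicle libraries stood above all 6 others. Pa2g4 (EBP1), which binds ribosomes and nucleolar pre-ribosomes, changed less with SHP099, at -0.21 ± 0.04 (adjusted p = 0.0072), than in mutant against WT vehicle cells, at 0.32 ± 0.04 (adjusted p = 0.00082), a difference in size that was not tested. SHP099-treated mutant cells held Pa2g4 at 597, 597 and 610.2 CPM, mutant vehicle cells at 677, 701 and 704 CPM and WT cells at 543, 542 and 582 CPM. All 3 groups were separate, with SHP099 between mutant vehicle and WT.

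Ncl (nucleolin), an RNA-binding phosphoprotein, and Npm1 (nucleophosmin), a histone and ribosome chaperone mutated in many human myeloid leukaemias, had the most counts of the 44 and together held 34.8% to 38.3% of their counts in each library. Ncl had 1866, 1944 and 1882 CPM with SHP099 and 2523, 2413 and 2337 CPM with vehicle in mutant cells, and 1797, 1768 and 1942 CPM in WT cells. SHP099 lowered Ncl by 0.35 on the log2 scale (SE 0.05, adjusted p = 0.002), and mutant vehicle exceeded WT cells by 0.40 ± 0.05 (adjusted p = 0.00096). With a trend on transcript length and GC content removed, the SHP099 change of Ncl was -0.14 and did not pass (adjusted p = 0.084). The principal transcript of Ncl in the annotation is 8202 nucleotides long around a coding sequence of 2121, which places the gene among long transcripts in that fit. In the SHP099 libraries Npm1 stood at 1353, 1449 and 1428 CPM, in the mutant vehicle libraries at 1706, 1759 and 1668 CPM and in the WT libraries at 1188, 1127 and 1337 CPM. Npm1 fell by 0.28 with SHP099 (SE 0.06, adjusted p = 0.014, and 0.056 without SHP099 replicate 1) and was higher in mutant vehicle than WT cells at 0.49 ± 0.06 (adjusted p = 0.0009). Its SHP099 libraries all remained above its WT libraries.

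**Figure D4:**
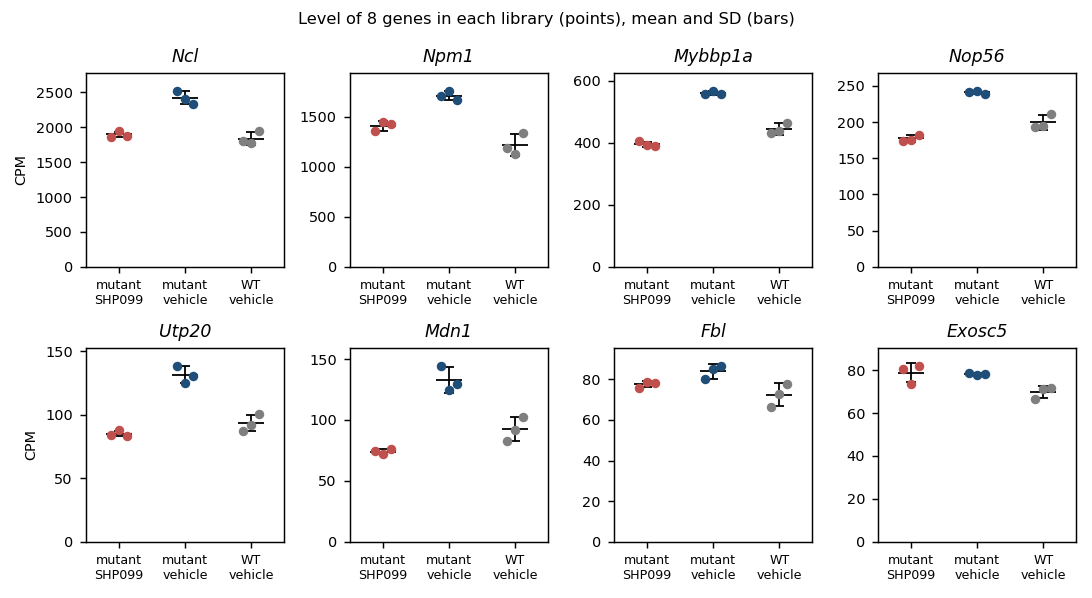
CPM (y axis, from 0) of 8 of the 44 genes in each library (points), with the mean and SD of 3 libraries (black). In Ncl, Npm1, Mybbp1a, Nop56, Utp20 and Mdn1 the mutant vehicle points lie above all others, and in Exosc5 the SHP099 and mutant vehicle points overlap.

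Box C/D snoRNPs place 2′-O-methyl groups on rRNA. Of their 4 genes, 3 were lower with SHP099 and all 4 were higher in mutant than in WT vehicle cells. Nop56 and Nop58 are paired core proteins of the particle, and their levels relative to WT differed in SHP099-treated cells. The level of Nop56 was 174, 176 and 182 CPM with SHP099, 241, 243 and 239 CPM in mutant vehicle cells and 193, 195 and 212 CPM in WT cells. For Nop58, counts came to 240, 263 and 260.4 CPM with SHP099, 313, 299 and 301 CPM with vehicle in mutant cells and 222, 222 and 244 CPM in WT cells. Nop56 with SHP099 lay below WT in every library, whereas the Nop58 libraries with SHP099 reached above WT and overlapped it in 1 library. With SHP099 against vehicle, Nop56 changed by -0.44 ± 0.04 (adjusted p = 0.00039) and Nop58 by -0.26 ± 0.05 (adjusted p = 0.0069), and in mutant against WT vehicle cells by 0.27 ± 0.04 (adjusted p = 0.0018) and 0.41 ± 0.05 (adjusted p = 0.00075). The difference between the pair was not tested. Fbl (fibrillarin) is the methyltransferase of the particle. Fbl reads made up 75.9, 78.5 and 78.4 CPM of the SHP099 libraries, 80.0, 85.0 and 86.7 CPM of the mutant vehicle libraries and 66.6, 72.9 and 77.8 CPM of the WT libraries. The SHP099 libraries lay just below the mutant vehicle libraries, and the SHP099 change of -0.11 ± 0.06 (adjusted p = 0.18) did not pass with no block and no trend removed. Fbl passed in the 6-library blocked fit (adjusted p = 0.029) but not with the block on all 9 libraries (adjusted p = 0.087). With the length and GC trend removed and no block, its SHP099 change was -0.19 and passed (adjusted p = 0.029). For genotype Fbl changed by 0.21 ± 0.06 (adjusted p = 0.017), with adjusted p of 0.0021 to 0.083 over 20 alternatives. Rrp9, a protein of the U3 snoRNP, fell with SHP099 at -0.28 ± 0.05 (adjusted p = 0.0055). Its genotype change of 0.19 ± 0.05 (adjusted p = 0.023) did not pass in 7 of 20 alternatives.

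Dkc1 (dyskerin), the pseudouridine synthase of H/ACA snoRNPs and a part of telomerase, was the sole H/ACA gene among the 44. SHP099-treated mutant cells held Dkc1 at 169.8, 179 and 174 CPM, mutant vehicle cells at 195, 196 and 195 CPM and WT cells at 153, 146 and 165 CPM. The 3 groups did not overlap, with mutant vehicle highest and WT lowest. Its SHP099 change was -0.17 ± 0.05 (adjusted p = 0.028), which failed in 6 of the 9 fits that left out 1 library (adjusted p up to 0.11), and its genotype change was 0.34 ± 0.05 (adjusted p = 0.001).

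Of the 12 genes of the small subunit processome and of 40S maturation, 10 were lower with SHP099 and 12 were higher in mutant than in WT vehicle cells. The genotype call of Bysl was lost in 10 of 20 alternatives (adjusted p up to 0.14), and that of Imp4 in 2. Utp20, a very large scaffold protein of pre-40S processing, had the second largest SHP099 decrease among the 44 before any trend was removed. Utp20 had 84.3, 87.5 and 83.5 CPM with SHP099 and 138, 125 and 131 CPM with vehicle in mutant cells, and 87.4, 92.1 and 100.3 CPM in WT cells. Its SHP099 change was -0.63 ± 0.06 (adjusted p = 0.00037) and its genotype change 0.49 ± 0.06 (adjusted p = 0.0005), and SHP099 and WT libraries overlapped. With the length and GC trend removed the SHP099 change of Utp20 was -0.41 (adjusted p = 0.0026), behind Nop56, Ppan, Mdn1 and Mybbp1a. Heatr1, the counterpart of yeast Utp10, changed by -0.42 ± 0.06 (adjusted p = 0.0016) with SHP099 and by 0.52 ± 0.06 (adjusted p = 0.00054) for genotype. In the SHP099 libraries Heatr1 stood at 145, 153 and 164 CPM, in the mutant vehicle libraries at 198, 203 and 218 CPM and in the WT libraries at 136, 142 and 152 CPM. All mutant vehicle libraries were above the other 6, and the SHP099 change of Heatr1 was -0.27 (adjusted p = 0.027) with the length and GC trend removed. Wdr43, the counterpart of yeast Utp5, gave -0.29 ± 0.04 (adjusted p = 0.0011) and 0.36 ± 0.04 (adjusted p = 0.0004) in the same 2 comparisons. The level of Wdr43 was 175, 183 and 184 CPM with SHP099, 223, 223 and 216 CPM in mutant vehicle cells and 168, 172 and 177 CPM in WT cells. Here too SHP099 and WT libraries overlapped. Rrp12, which in yeast takes part in export of subunits from the nucleus, was lower with SHP099 than in either vehicle group. For Rrp12, counts came to 67.7, 63.6 and 63.2 CPM with SHP099, 87.5, 82.9 and 88.8 CPM with vehicle in mutant cells and 71.6, 75.6 and 79.0 CPM in WT cells. It changed by -0.41 ± 0.05 (adjusted p = 0.00063) with SHP099 and by 0.19 ± 0.05 (adjusted p = 0.013) for genotype, the second of these with adjusted p = 0.07 without mutant vehicle replicate 3.

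Noc4l and Ltv1 were the 2 small subunit genes that did not pass with SHP099 in the fit without a block. Noc4l reads made up 108, 106 and 110.2 CPM of the SHP099 libraries, 114, 118 and 125 CPM of the mutant vehicle libraries and 97.9, 106 and 104 CPM of the WT libraries. Noc4l, a partner of Nop14 in yeast, had SHP099 libraries below all mutant vehicle libraries, and its change of -0.14 ± 0.04 stood just over the threshold, with adjusted p of 0.0057 to 0.23 over 21 alternatives. Noc4l passed in the 6-library blocked fit (adjusted p = 0.0057) and with the block on all 9 libraries (adjusted p = 0.042). It also passed with the length and GC trend removed and no block (adjusted p = 0.02). SHP099-treated mutant cells held Ltv1 at 90.4, 93.3 and 97.0 CPM, mutant vehicle cells at 99.1, 95.9 and 94.6 CPM and WT cells at 83.2, 78.1 and 85.1 CPM. Ltv1, a 40S assembly factor, had overlapping SHP099 and vehicle libraries and a change of -0.04 ± 0.04 (adjusted p = 0.5). Both were higher in mutant than in WT vehicle cells, Noc4l at 0.22 ± 0.04 (adjusted p = 0.0063) and Ltv1 at 0.23 ± 0.04 (adjusted p = 0.0038). The remaining 6 were all lower with SHP099: Tsr1 at -0.30, Bms1 (a GTPase of the processome) at -0.26, Nop14 at -0.25, Bysl at -0.21, Utp15 at -0.20 and Imp4, a U3-associated protein, at -0.16 (log2). Utp15 and Imp4 did not pass once the length and GC trend was removed (adjusted p = 0.067 and 0.5). The principal transcript of Imp4 in the annotation is 5836 nucleotides long around a coding sequence of 873. This places Imp4, like Ncl, among long transcripts in that fit.

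In the PeBoW complex, which acts in 28S rRNA maturation, Bop1 alone of 3 genes passed with SHP099, at -0.29 ± 0.05 (adjusted p = 0.003), while all 3 were higher in mutant than in WT vehicle cells. Pes1 had 168, 163 and 167 CPM with SHP099 and 165, 181 and 172 CPM with vehicle in mutant cells, and 149.8, 144 and 150.2 CPM in WT cells. SHP099 and mutant vehicle libraries of Pes1 overlapped, with a change of -0.06 ± 0.04 (adjusted p = 0.33), and both stood above WT. In the SHP099 libraries Wdr12 stood at 90.5, 88.7 and 89.4 CPM, in the mutant vehicle libraries at 93.4, 95.5 and 93.5 CPM and in the WT libraries at 77.2, 76.0 and 79.5 CPM. For Wdr12 the SHP099 libraries lay below the mutant vehicle ones by a small step of -0.07 ± 0.03 (adjusted p = 0.13) that did not pass, and genotype gave 0.28 ± 0.03 (adjusted p = 0.00051). Bop1 had a genotype change of 0.18 ± 0.05 (adjusted p = 0.018), with adjusted p of 0.0026 to 0.09 over 20 alternatives.

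The other 60S assembly genes numbered 16, with 11 lower with SHP099 and 15 higher in mutant than in WT vehicle cells. Mdn1 (midasin), a giant AAA ATPase that strips assembly factors from the pre-60S particle, had the largest SHP099 change of the 44 before any trend was removed and there shared the largest genotype change with Heatr1. The level of Mdn1 was 74.4, 72.0 and 75.8 CPM with SHP099, 144, 125 and 129 CPM in mutant vehicle cells and 82.7, 91.9 and 103 CPM in WT cells. SHP099 libraries lay below all WT libraries, and mutant vehicle libraries above them. Its log2 fold changes were -0.84 ± 0.08 (adjusted p = 0.00037) with SHP099, a 1.79-fold decrease, and 0.52 ± 0.08 (adjusted p = 0.0014) for genotype. With the length and GC trend removed they were -0.47 (adjusted p = 0.0042), a smaller decrease than Nop56 at -0.50 and Ppan at -0.49, and 0.36 (adjusted p = 0.0062), a smaller increase than Heatr1 at 0.43, Npm1 at 0.41 and Nolc1 at 0.40 among others. Nop2, a methyltransferase of the large subunit rRNA, changed by -0.39 ± 0.05 (adjusted p = 0.00078) and 0.27 ± 0.05 (adjusted p = 0.0029). For Nop2, counts came to 119, 116 and 118 CPM with SHP099, 156, 157 and 149 CPM with vehicle in mutant cells and 120.1, 126 and 136 CPM in WT cells. Its SHP099 libraries were the lowest and its mutant vehicle libraries the highest of the 9. Rrp1b had the smallest p of the 44 genes for genotype. Rrp1b reads made up 97.6, 96.8 and 100.1 CPM of the SHP099 libraries, 122, 119 and 123 CPM of the mutant vehicle libraries and 91.4, 92.1 and 94.7 CPM of the WT libraries. Rrp1b changed by 0.38 ± 0.03 (adjusted p = 0.00017) for genotype and by -0.30 ± 0.03 (adjusted p = 0.00053) with SHP099, and its 3 groups did not overlap. Gnl3 (nucleostemin), a nucleolar GTPase abundant in stem and progenitor cells, gave -0.35 ± 0.06 (adjusted p = 0.0027) with SHP099 and 0.45 ± 0.06 (adjusted p = 0.00075) for genotype. SHP099-treated mutant cells held Gnl3 at 118, 126 and 126 CPM, mutant vehicle cells at 166, 153 and 153 CPM and WT cells at 109, 113 and 123 CPM. Libraries with SHP099 and WT libraries overlapped.

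Noc2l was the sole gene that missed the threshold for genotype. Noc2l had 173, 172 and 161 CPM with SHP099 and 211, 230.3 and 198 CPM with vehicle in mutant cells, and 174, 187 and 201 CPM in WT cells. Mutant vehicle and WT libraries overlapped, at 0.18 ± 0.07 (adjusted p = 0.062), while SHP099 lowered it by 0.34 (SE 0.07, adjusted p = 0.0073). With the length and GC trend removed its genotype change passed (adjusted p = 0.034).

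The 5 genes of this role that did not pass with SHP099 were Ddx18, Gnl2, Rrs1, Nop16 and Nip7. In the SHP099 libraries Ddx18 stood at 66.7, 73.4 and 73.6 CPM, in the mutant vehicle libraries at 74.1, 83.6 and 84.0 CPM and in the WT libraries at 63.8, 64.4 and 73.5 CPM. The level of Gnl2 was 88.0, 85.9 and 87.8 CPM with SHP099, 98.0, 93.2 and 95.5 CPM in mutant vehicle cells and 81.2, 82.1 and 91.0 CPM in WT cells. For Rrs1, counts came to 103, 99.8 and 104 CPM with SHP099, 113, 111 and 109.9 CPM with vehicle in mutant cells and 88.4, 104 and 98.5 CPM in WT cells. In these 3 genes every SHP099 library was below every mutant vehicle library, and all 3 passed in the 6-library blocked fit (adjusted p = 0.00095 for Ddx18, 0.0095 for Gnl2 and 0.011 for Rrs1). With the block on all 9 libraries Ddx18 alone of them passed (adjusted p = 0.027, against 0.069 for Gnl2 and 0.14 for Rrs1). Without a block Ddx18, a helicase whose yeast counterpart is Has1, changed by -0.18 ± 0.07 (adjusted p = 0.096). Gnl2, a GTPase whose yeast counterpart is Nog2, changed by -0.13 ± 0.05 (adjusted p = 0.071), and passed with the length and GC trend removed (adjusted p = 0.045). Rrs1, which brings the 5S particle to the pre-60S in yeast, changed by -0.13 ± 0.05 (adjusted p = 0.12). Nop16 reads made up 82.2, 78.1 and 83.2 CPM of the SHP099 libraries, 86.1, 89.8 and 82.8 CPM of the mutant vehicle libraries and 67.9, 71.6 and 79.2 CPM of the WT libraries. SHP099-treated mutant cells held Nip7 at 63.3, 66.0 and 65.2 CPM, mutant vehicle cells at 64.1, 74.0 and 66.8 CPM and WT cells at 52.3, 55.4 and 64.6 CPM. Nop16 and Nip7 had overlapping SHP099 and vehicle libraries, with changes of -0.09 ± 0.06 (adjusted p = 0.31) and -0.08 ± 0.08 (adjusted p = 0.52). All 5 were called higher in mutant than in WT vehicle cells, from 0.17 for Gnl2 to 0.26 for Ddx18, and in Nip7 the libraries of the 2 groups overlapped (adjusted p = 0.035, and 0.0082 to 0.14 over 20 alternatives). Over the same 20 alternatives the genotype call was lost for Nip7 in 11, Gnl2 in 6, Rrs1 in 5, Ddx18 in 4 and Nop16 in 2. Elsewhere in this role it was lost for Nle1 in 5 and Wdr74 in 3. The other 6 genes all fell with SHP099, with log2 changes of -0.46 for Ppan, -0.38 for Nle1, -0.34 for Noc3l, -0.27 for Grwd1, -0.22 for Wdr74 and -0.20 for Mrto4. Wdr74 failed in 7 of the 9 fits that left out 1 library (adjusted p up to 0.11) and Mrto4 without SHP099 replicate 1 (adjusted p = 0.059).

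Exosc5, a ring subunit of the RNA exosome that trims pre-rRNA, was the sole exosome gene among the 44 and the one gene whose mean was not lower with SHP099. Exosc5 had 80.5, 73.8 and 82.1 CPM with SHP099 and 78.7, 77.7 and 78.3 CPM with vehicle in mutant cells, and 66.7, 71.3 and 71.7 CPM in WT cells. SHP099 and mutant vehicle libraries overlapped, at 0.01 ± 0.05 (adjusted p = 0.9). Its genotype change was 0.16 ± 0.05 (adjusted p = 0.026), with adjusted p of 0.0011 to 0.098 over 20 alternatives.

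Levels between genes were compared per kilobase of coding sequence. In mutant vehicle cells Npm1 was highest at 1953 CPM per coding kilobase, followed by Ncl at 1143 and Pa2g4 at 587, and Mdn1 was lowest at 7.93. The same 3 genes led and Mdn1 was last in SHP099 libraries, with 1609, 895, 509 and 4.42, and in WT libraries, with 1389.5, 866, 469.9 and 5.52. The order of Ncl and Pa2g4 depended on the length used. Per kilobase of whole transcript Pa2g4 exceeded Ncl in SHP099 libraries (247.2 against 231.3) and WT libraries (228.4 against 223.8). In mutant vehicle libraries Pa2g4 was then below Ncl (285.3 against 295.6). Of the 44 genes, 8 host annotated snoRNAs on their own strand, among them Nop56 with 5 and Nop58 with 4. Exons of 16 of the 44 (Nop56, Mybbp1a, Rrp9, Rrp1b, Dkc1, Gnl3, Gnl2, Bysl, Wdr12, Bop1, Pes1, Noc2l, Exosc5, Heatr1, Nle1 and Tsr1) overlap those of a coding gene on the opposite strand. Whether counting used the strand is not given in the sources used here, so their levels are less certain.

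The share of genes called lower with SHP099 rose with transcript length across the whole table, so length was set beside the module's values. In 4 bins of transcript length from short to long, with 3196 to 3205 genes each, 4.02%, 7.06%, 12.4% and 28.8% of all genes were called lower with SHP099. Of the 44 genes, 5 of 7, 9 of 15, 8 of 11 and 11 of 11 were lower in the same bins. Genes called higher for genotype also rose with length, at 11.2%, 15.7%, 18.5% and 22.6% of all genes in these bins. The genotype medians of the 44 genes were 0.21, 0.26, 0.28 and 0.35 from short to long. Their median transcript length was 2743 nucleotides, against 2727 for all genes with a length. With the trend on length and GC content removed from each library, 33 of the 44 genes were lower with SHP099, against 9.23% of all genes, with a median of -0.27. In mutant against WT vehicle cells, 42 were then higher, against 14.3% of all genes. Mdn1 and Utp20, the 2 largest decreases before this removal, are also the longest transcripts of the module at 17959 and 8821 nucleotides, and with the trend removed they stood at -0.47 and -0.41, behind Nop56 at -0.50. In the other direction, Mrto4 moved to -0.33 (adjusted p = 0.0023), against -0.20 before.

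**Figure D5:**
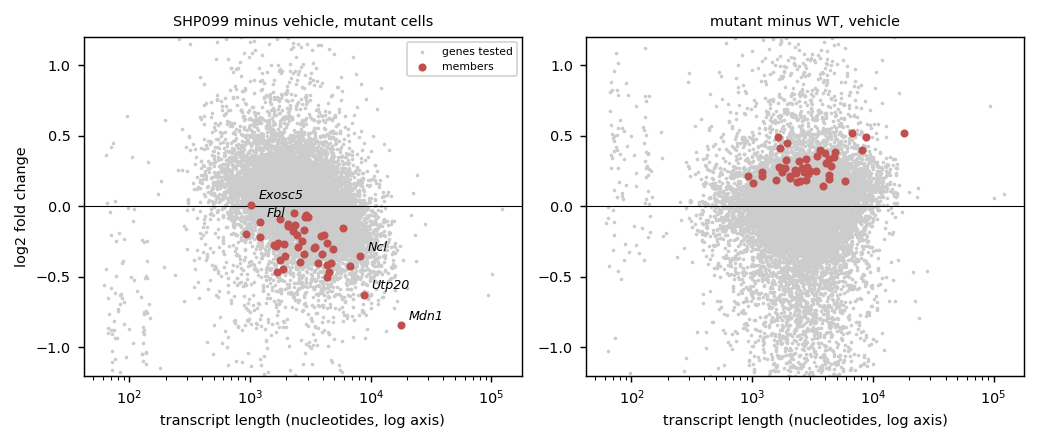
Log2 fold change (y axis) against transcript length (x axis, log scale) for genes tested (grey) and the 44 genes (red), with SHP099 on the left and genotype on the right. Grey points fall with length on the left, red points lie mostly below 0 at every length there, and all red points lie above 0 on the right.

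E-box carriers and other members were set side by side without a test. The 12 genes with CACGTG had 9 lower with SHP099 and a median of -0.30, and the 25 with a window and no match had 20 lower and a median of -0.26. For genotype the medians were 0.27 and 0.28. Myc itself, listed apart from the 44, was lower with SHP099 and higher in mutant than in WT vehicle cells. In the SHP099 libraries Myc stood at 290.2, 276 and 287 CPM, in the mutant vehicle libraries at 339.7, 311 and 325 CPM and in the WT libraries at 222, 241 and 231 CPM. Its 3 groups did not overlap, with -0.19 ± 0.05 (adjusted p = 0.016) for SHP099 (adjusted p of 0.00023 to 0.086 over the alternatives) and 0.49 ± 0.05 (adjusted p = 0.00023) for genotype, and it was above WT in SHP099-treated cells at 0.30 ± 0.05 (adjusted p = 0.0018).

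Other genes of the same pathways were counted from lists kept apart from the 44, chosen like them with earlier results known. The shares of all genes called were 13.0% lower and 8.81% higher with SHP099, and 16.9% higher and 14.7% lower for genotype. A list of 48 further genes joined the small subunit processome with later small subunit maturation and with H/ACA snoRNPs. Of its genes, 19 were lower and 0 higher with SHP099 (median -0.12), and 39 were higher and 0 lower in mutant than in WT vehicle cells (median 0.22). With SHP099 these included Wdr46 at -0.37 ± 0.04 (adjusted p = 0.00045), the rRNA acetyltransferase Nat10 at -0.36 ± 0.04 (adjusted p = 0.0007), the helicase Dhx37 at -0.38 ± 0.05 (adjusted p = 0.00077) and Cirh1a at -0.35 ± 0.04 (adjusted p = 0.0009). For genotype they included Ddx52 at 0.34 ± 0.04 (adjusted p = 0.00051), Wdr3 at 0.30 ± 0.04 (adjusted p = 0.00077), Cirh1a at 0.33 ± 0.04 (adjusted p = 0.00096) and Utp6 at 0.26 ± 0.04 (adjusted p = 0.0011). The H/ACA genes of this list, Nop10, Nhp2, Gar1 and Naf1, changed by 0.14, -0.09, -0.12 and -0.39 with SHP099, and Naf1 alone passed. Their genotype changes were 0.27, 0.2, 0.2 and 0.34, and all but Gar1 passed. Of 44 further 60S assembly genes, 25 were lower and 0 higher with SHP099 (median -0.17), with the smallest p for Ftsj3, Nol8, Urb2 and Nol9 at -0.33, -0.36, -0.31 and -0.32. For genotype 32 were higher and 0 lower (median 0.21), among them Rsl1d1 at 0.36, Ddx56 at 0.31, Urb2 at 0.32 and Ftsj3 at 0.33.

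Of the other RNA exosome genes, 3 of 13 were lower with SHP099 (Dis3 at -0.38, Skiv2l2 at -0.18 and Exosc10 at -0.15) with a median of -0.04, and 8 of 13 were higher for genotype (median 0.20), with Dis3, the catalytic subunit, at 0.34, Exosc8 at 0.25, Skiv2l2 at 0.20 and Exosc9 at 0.26. Of 15 genes of the RNA polymerase I machinery, 8 were lower and 1 higher with SHP099 (median -0.17), and 6 were higher and 0 lower for genotype (median 0.14). Polr1a, the largest subunit, had 75.8, 75.4 and 76.2 CPM with SHP099, 118, 104 and 110.3 CPM in mutant vehicle cells and 78.6, 83.9 and 91.6 CPM in WT cells, and changed by -0.55 ± 0.06 (adjusted p = 0.00053) and 0.39 ± 0.06 (adjusted p = 0.0016). Polr1b gave -0.44 and 0.33, the initiation factor Rrn3 -0.26 and 0.26, and Taf1d -0.45 and 0.52. Znrd1, a small subunit of the polymerase, was the exception, with 30.6, 30.7 and 30.4 CPM with SHP099 against 25.7, 27.7 and 25.7 CPM with vehicle in mutant cells, a change of 0.21 ± 0.06 (adjusted p = 0.025) that did not pass with the length and GC trend removed.

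Markers of other cell types differed between the same groups. Of 10 mature neutrophil markers, 4 were higher and 0 lower with SHP099, with summed levels of 25513 to 30483 CPM against 17651 to 18707 CPM with vehicle in mutant cells, and for genotype 1 was higher and 6 lower, the WT libraries summing to 24138 to 30582 CPM. Of 10 mast cell and basophil markers, 5 were higher with SHP099 and 8 were lower for genotype, at summed levels of 1669 to 2234 CPM in SHP099, 1123 to 1650 CPM in mutant vehicle and 2254 to 2499 CPM in WT libraries. Of 8 megakaryocyte markers, 2 were higher with SHP099 and all 8 were lower for genotype, at 1613 to 2167 CPM in SHP099, 1312 to 1805 CPM in mutant vehicle and 2950 to 3720 CPM in WT libraries. Erythroid markers were called in neither direction with SHP099 and lower for genotype in 5 of 5 tested, at 76.4 to 97.6 CPM in SHP099, 55.9 to 83.1 CPM in mutant vehicle and 134.7 to 196.5 CPM in WT libraries, with Hbb-bt, Hbb-bs, Hba-a1 and Hba-a2 listed at 0. These SHP099 counts rest on the fit without a block, which called 8.81% of all genes higher. For genotype 14.7% of all genes were called lower. The fit of the 6 mutant libraries with the culture as a block called higher all 10 neutrophil, 8 of 10 mast cell and basophil, 7 of 8 megakaryocyte, 4 of 5 erythroid and 6 of 10 myeloid progenitor markers, against 21.5% of all genes. The block on all 9 libraries called 7 neutrophil, 6 mast cell and basophil and 3 megakaryocyte markers higher, and no erythroid marker. With the length and GC trend removed and no block, 2 neutrophil, 4 mast cell and basophil and 2 megakaryocyte markers were higher, and no erythroid marker. That fit called 1049 of all 13270 genes higher. The lymphoid list summed to under 1 CPM in every library, with Pax5 at 0, and stromal markers summed to 12.1 to 19.6 CPM in SHP099, 11.7 to 17.7 CPM in mutant vehicle and 14.8 to 35.4 CPM in WT libraries. The part of these cell types in the module's changes was not tested.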

How the data were processed

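The 9 libraries were made with the TruSeq stranded mRNA kit, per the labels' protocols. Of tools, the submitters' processing notes list STAR, featureCounts, Subread and FastQC, with the build mm10. The sources used here do not give the strand setting or the handling of multi-mapping reads. The authors deposited raw counts per gene, whole numbers for 24421 symbols, with no normalization. Groups and replicate numbers came from the labels, and 1 column name differing in its last character from its sample title was taken as SHP099 replicate 3. P-values measure the spread between these libraries, and those of WT may not be separate mice.

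The 44 genes, the other gene lists and the alternatives were chosen with earlier results of these data known. Counts were fitted in R 4.3.3 with edgeR 4.0.16. filterByExpr (minimum count 10) kept 13270 genes, TMM scaled the libraries, and all 9 libraries entered a single quasi-likelihood fit with group means as coefficients, with two-sided tests, Benjamini-Hochberg adjustment over all genes of a comparison and a threshold of 0.05. SE is the absolute log2 fold change over the square root of F, and CPM were computed on TMM-scaled library sizes. The biological coefficient of variation was 9.04%. The steps of the fit without a block were tested on simulated data drawn with no culture effect, and the blocked fits were not tested in this way. Deviations from group means of mutant vehicle and SHP099 libraries correlated at 0.54, 0.6 and 0.56 for the same number and at -0.36 to -0.23 for different numbers, and the series' design text ties each of these cultures to its own mouse, so the numbers pair them. Replicates differed by more than sampling noise, at 11.1 to 25.8 chi-square per degree of freedom outside SHP099 replicate 3. That library gave 116 against SHP099 replicate 1 and 113 against SHP099 replicate 2.

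Values per library are given for the 10 genes with the smallest p for SHP099 and for genotype, for genes that missed either threshold, and for Ncl, Npm1, Fbl, Nop56, Nop58 and Dkc1. From other lists up to 4 called genes per direction with the smallest p are named, besides Myc, Tet2, Ptpn11 and Rn45s. Transcript length (APPRIS principal transcript), GC content and overlaps came from GENCODE M21 (GRCm38). DESeq2 1.42.0 was an alternative.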

Additional observations from a re-analysis of the deposited data

How the results depend on the processing

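The count of the 44 genes lower with SHP099 was 28 to 38 and that of genes higher in mutant vehicle than WT cells 32 to 43 over all alternatives run, with no gene called the other way. The median for SHP099 was -0.32 with library totals alone and -0.28 to -0.23 when 1 library was left out. All genes called for SHP099 numbered 2890 without a block, 5563 with the replicate block on the 6 mutant libraries and 1767 to 2976 when 1 library was left out (1767 without SHP099 replicate 3). The replicate block on all 9 libraries called 35 of the 44 lower. The median for genotype was 0.25 with RLE size factors, DESeq2, at least 1 CPM in 3 libraries or Rn45s left out, 0.24 in the 2 groups alone and 0.23 to 0.30 with 1 library left out. For SHP099-treated mutant against WT cells, library totals gave 2 genes higher and a median of -0.01, and removal of the length and GC trend gave 4 higher, 1 lower and a median of 0.01 (1 lower and 0.01 with the block as well). Leaving out 1 library gave 1 to 11 higher, 5 to 9 lower and medians of 0.01 to 0.08. Exosc5, not called for SHP099, had a log2 fold change of 0.01 that became -0.036 with library totals, -0.066 with the length and GC trend removed, -0.067 with the block added and -0.018 to 0.07 with 1 library left out (-0.018 without SHP099 replicate 3). The cause of these shifts was not tested. In mutant and WT vehicle libraries the numbers did not pair (correlations of -0.07, -0.11 and -0.13), and the block left 43 of the 44 higher. In fits that left out 1 library, the other groups lent their spread to the remaining 2.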

Other observations

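Cell cycle genes were counted from lists kept apart from the module. Of 10 G2/M and mitotic genes, 4 were lower with SHP099 (Mki67 at -0.34, Cenpf at -0.26, Ccnb1 at -0.12 and Plk1 at -0.11) and Ccnb2 was higher at 0.14, and for genotype Bub1 (0.31) and Top2a (0.19) were higher in mutant vehicle than WT cells. The summed level of the list was 3180 to 3304 CPM with SHP099, 3485 to 3827 CPM in mutant vehicle cells and 3308 to 3505 CPM in WT cells. Of 12 G1/S and replication genes, Cdt1, a licensing factor, was lower with SHP099 at -0.23 ± 0.03 (adjusted p = 0.0017), and none was called for genotype. That list summed to 3561 to 3645 CPM in SHP099, 3678 to 3705 CPM in mutant vehicle and 3501 to 3610.2 CPM in WT libraries. Over all genes tested, the fit without a block called 13.0% lower and 8.81% higher with SHP099, and 16.9% higher for genotype. With the length and GC trend removed, 2 of the 10 G2/M genes and 4 of the 12 G1/S genes were lower with SHP099, against 9.23% of all genes. The fit of the 6 mutant libraries with the culture as a block called 6 of the 10 G2/M genes lower and 1 higher. It called 4 of the 12 G1/S genes lower and 2 higher, against 21.3% and 21.5% of all genes.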
